A study of Mus musculus with 15 samples.

Results

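The knockout (KO) of Atg7 was compared with its control late in the conversion of mouse embryonic stem cells (ESCs) into cells like the epiblast (EpiLCs), at day 4, in all genes. The 6 libraries compared, of 15 in the series, are the 3 titled Atg7 KO and the 3 titled Control at that day. All come from E14TG2, a mouse ESC line that was kept on inactivated embryonic fibroblasts (feeders) with LIF and the inhibitors PD0325901 (of MEK) and CHIR99021 (of GSK3). Both groups had gone through the same conversion, in which cells were plated on fibronectin in N2B27 medium with activin A, bFGF and serum replacement. As labelled, the groups differ by genotype alone. The sources used here do not say how Atg7 was knocked out, in which exons, or whether the KO cells are 1 clone or several. The other 9 libraries, ESCs at day 0 and both genotypes at day 2, enter the fit, and day 2 is used where the KO effects of the days are compared.

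ATG7 is the E1-like enzyme of autophagy. It activates ATG12, which is then joined to ATG5, and the ATG8 proteins (LC3 and GABARAP), which are then joined to lipid, and both steps serve the growth and closure of the autophagosome that carries cargo to the lysosome. ESCs in inhibitors and LIF resemble the naive epiblast before implantation, with high Nanog, Klf4, Tfcp2l1 and Esrrb, while EpiLCs lose these factors and take up Otx2, Pou3f1, Dnmt3a and Fgf5 of the formative epiblast. The title of the study names autophagy through Atg7, NANOG protein and the passage from the naive to the primed state. The comparison bears on which genes differ late in the conversion. How far that passage had gone by then is taken up with the markers below. RNA-seq reads the transcripts, not the protein.

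Levels below are CPM, a gene's counts relative to the library total after scaling the libraries to one another, and fold changes are log2 values, KO minus control, ± standard error (SE) from 1 edgeR model. The words rise, fall and change are kept for genes with an edgeR quasi-likelihood adjusted p under 0.05 (Benjamini-Hochberg over the 15696 genes tested). The day 4 libraries held 14059237 to 17282802 counts each. Whether replicates were separate cultures is not in the labels, and p-values therefore reflect only how the libraries scatter, which may be technical. That scatter is estimated from all 15 libraries, so SE and p-values at day 4 also carry the spread within the day 0 and day 2 groups. In bulk RNA, fewer cells of a type and less RNA per cell cannot be told apart.

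Atg7 itself was lowered, not absent. The gene spans chr6:114643097-114860614 on the plus strand of GRCm38. Its level was 19.1, 19.9 and 19.4 CPM in the 3 control libraries and 12.6, 12.7 and 10.4 CPM in the 3 KO libraries. All KO libraries lay below all control libraries, with a fall of 0.71 ± 0.11 (edgeR adjusted p = 8.39e-05). Which exons remain in the KO transcripts cannot be read from counts per gene.

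At day 4, 5903 of the 15696 genes changed, which is 37.6% of those tested. Of these, 3058 (19.5%) were higher and 2845 (18.1%) lower in KO, a balance that turned with upper quartile scaling (44.5% of the calls higher) and with a stricter filter on low counts (46.9%), against 51.8% here. Most changes were small, with a median size of 0.47 on the log2 scale among the called genes. Large changes were mostly decreases, since 824 genes (5.25%) fell by at least 2-fold and 218 (1.39%) rose as much. The genes that fell 2-fold or more had a median level of 2.67 CPM in control against 0.891 CPM in KO, and 282 of them reached 5 CPM in control. Among the 218 that rose, the medians were 2.99 CPM in control and 7.34 CPM in KO. The 3 KO and 3 control libraries did not overlap in 8611 genes (54.9%). Counts of list members below are read against these shares, and the median log2 fold change of all tested genes was -0.01. The plot of fold changes by gene list orders 40 lists by their median, from the fibroblast and integrated stress response genes to the hypoxia-inducible and 2-cell-like genes.

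**Figure D1:**
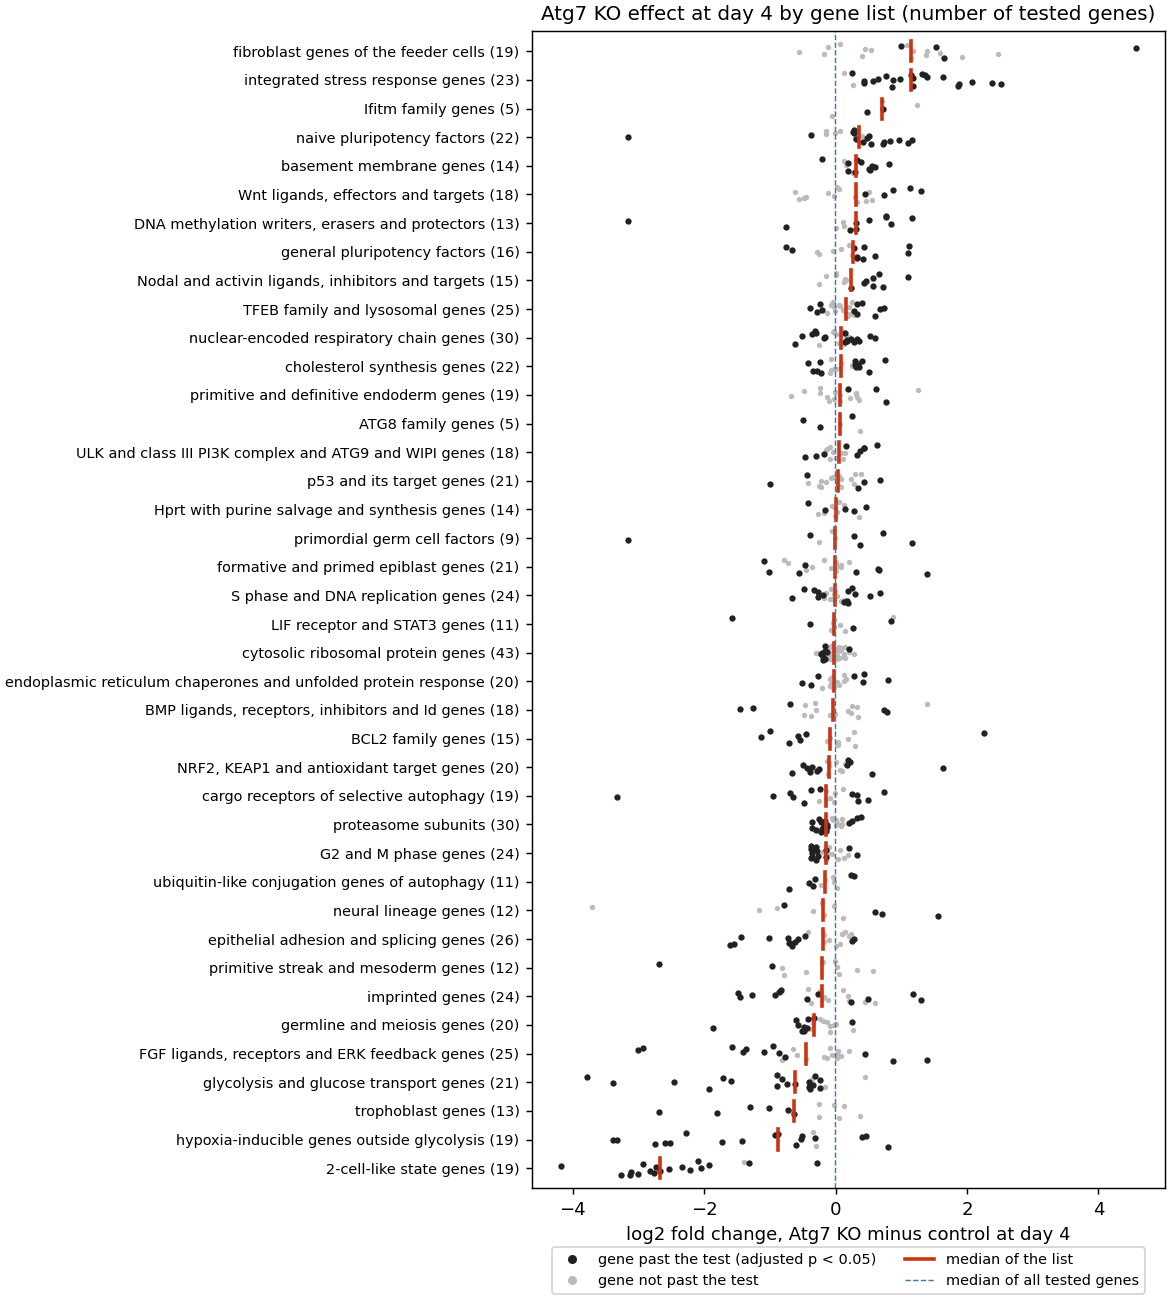
Log2 fold change of KO against control at day 4 (horizontal axis) for every tested member of 40 gene lists (vertical axis, number of tested genes in brackets). Black points passed the edgeR test (adjusted p under 0.05), grey points did not, the red bar is the median of the list and the dashed line the median of all tested genes. The integrated stress response list, with a median of 1.15, lies near the top, and the 2-cell-like list, with a median of -2.67, at the bottom.

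Cell type markers were summed as a check of the labels. Markers of the naive state were present in all 6 libraries and their sum was higher in KO, at 1946 to 2284 CPM against 1320.0 to 1377 CPM in control, with 6 of 6 genes risen. These markers, Nanog, Klf4, Tfcp2l1, Esrrb, Zfp42 and Tbx3, are part of the naive list of 22 genes described below. In that list 14 rose, 2 fell (Dppa3 and Dppa2) and 6 did not pass. Those of EpiLCs summed to 286 to 309.6 CPM in KO and 283 to 318 CPM in control, though Fgf5, a defining EpiLC gene, was low. Of these 6 genes 2 rose and 2 fell. The 2 that fell, Otx2 and Pou3f1, had means of 29.0 and 11.1 CPM in control and so weigh little in the sum. In the ESC libraries the naive markers summed to 4154 to 4479 CPM and those of EpiLCs to 134 to 252 CPM. Single genes did not all follow these sums. Zfp42 averaged 301 CPM in control against 130 CPM in ESCs, and Fgf5 0.64 against 0.38 CPM. How far the controls had passed from the naive state was therefore not settled by these markers. The 9 feeder fibroblast markers summed to 92.3 to 136 CPM in KO and 51.2 to 59.4 CPM in control, with 6 of 9 higher in all KO libraries and 1 of 9 (Col1a1) past the test. Endoderm markers summed to 304 to 340.2 CPM in KO and 249 to 335 CPM in control. Germ cell markers (Dazl, Ddx4 and Sycp3) were not low, at 1074 to 1344 CPM in KO and 1260 to 1571 CPM in control, and 2 of 3 fell. The 2-cell-like markers summed to 30.7 to 34.3 CPM in KO and 201 to 259 CPM in control. Trophoblast, mesoderm and neural markers were low. Trophoblast markers summed to 35.3 to 39.1 CPM in KO and 42.0 to 52.9 CPM in control. Mesoderm markers summed to 7.95 to 9.20 and 12.5 to 17.2 CPM, and neural markers to 73.1 to 75.7 and 43.8 to 46.8 CPM. In single genes, Cdx2, Elf5, Mixl1, Mesp1, Neurog2, Dcx and Ttr were under 1 CPM in all 6 libraries, and none of the marker genes was at 0 throughout.

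Naive pluripotency factors were mostly higher in KO cells. Of the 22 genes of this list, 14 rose, 2 fell and 6 did not pass, against 19.5% risen among all genes, and the median log2 fold change was 0.35. Nanog, the homeodomain factor of the naive state (chr6:122707489-122714633, plus strand, GRCm38), measured 417, 412 and 409 CPM in the 3 control libraries and 677, 589.9 and 779.9 CPM in the 3 KO libraries. All 3 KO libraries were above the controls, which lay close together, and Nanog rose by 0.72 ± 0.10 (edgeR adjusted p = 3.37e-05). Prdm14, a repressor of FGF signalling and of DNA methylation in naive cells, measured 16.3, 13.9 and 13.96 CPM in control against 32.9, 29.8 and 36.6 CPM in KO and rose by 1.17 ± 0.19. Klf4, which binds with OCT4 and SOX2 at enhancers, measured 42.4, 40.8 and 45.8 CPM in control against 94.8, 78.97 and 104 CPM in KO. Its groups were likewise apart, with a rise of 1.11 ± 0.11 (edgeR adjusted p = 1.29e-06).

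The wider circuit of naive factors moved with these genes. Tbx3, a T-box factor that sustains self-renewal, rose by 0.96 ± 0.06 and Tfcp2l1, a factor downstream of LIF, by 0.82 ± 0.08. Klf5 rose by 0.73 ± 0.13, Klf2 by 0.55 ± 0.12, Zfp57, which protects imprints, by 0.51 ± 0.09, Nr5a2 by 0.48 ± 0.09, Esrrb by 0.42 ± 0.07 and Zfp42, the gene of REX1, by 0.31 ± 0.05. The rises of Stat3, Pecam1 and Tcl1 were smaller, between 0.27 and 0.28. Nr0b1, Spic, Fbxo15, Socs3, Dppa4 and Manba did not pass.

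Dppa3 went the other way. It encodes STELLA, which shields the maternal genome from demethylation and marks naive and germ cells, and lies at chr6:122626410-122630272 (plus strand, GRCm38). Its level was 43.1, 32.6 and 41.99 CPM in the 3 control libraries and 5.22, 4.50 and 3.39 CPM in the 3 KO libraries. Every control library was several times higher than any KO library, and the fall of 3.16 ± 0.17 (edgeR adjusted p = 8.75e-09) was the largest in the list. Dppa2, a partner of Dppa4 in bivalent and zygotic gene control, fell by 0.38 ± 0.12; leaving out control replicate 1, KO replicate 1 or KO replicate 2 ended this call.

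**Figure D2:**
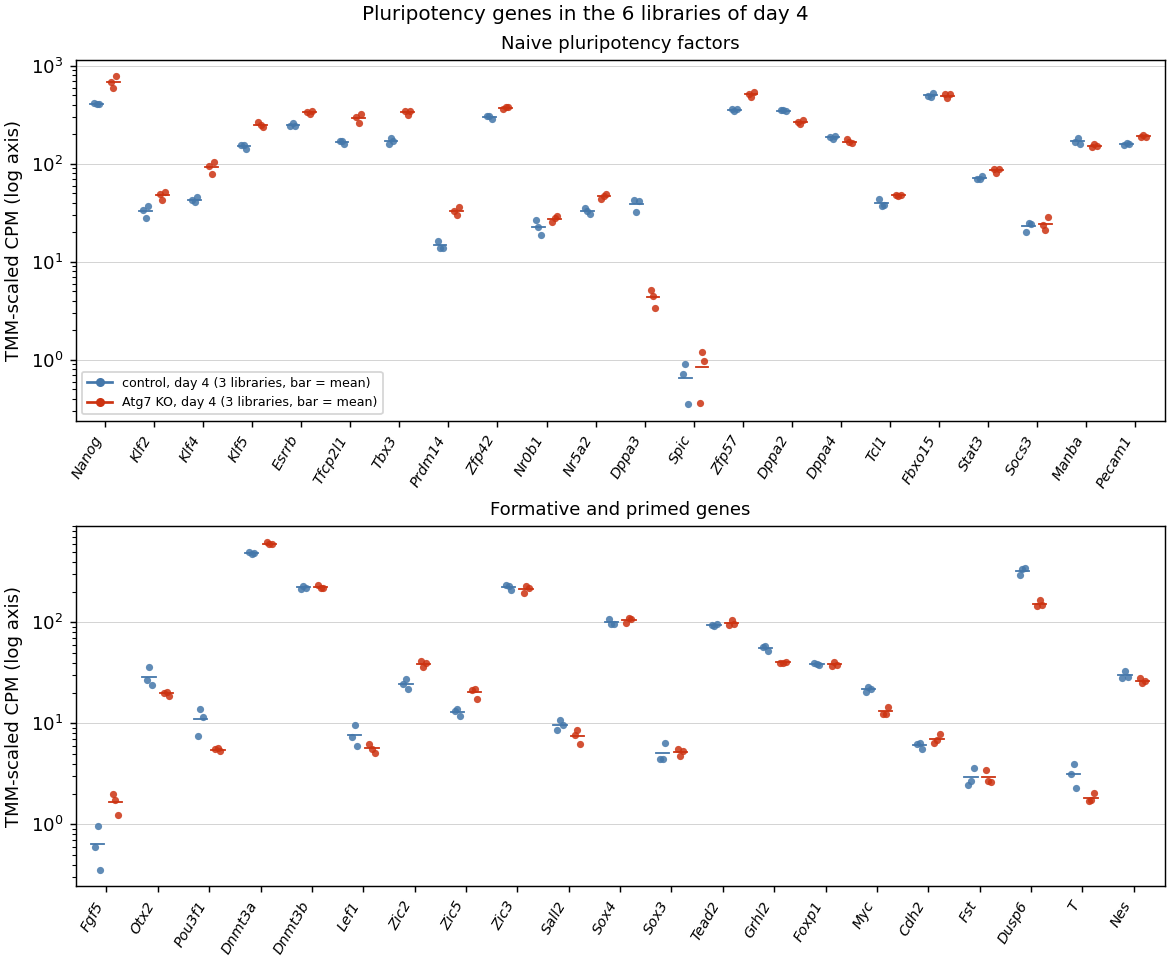
Level of each tested naive factor (top) and each formative or primed gene (bottom) in the 3 control (blue) and 3 Atg7 KO (red) libraries of day 4, as TMM-scaled CPM on a log axis, where bars are means. Nanog, Klf4, Tbx3 and Prdm14 have all red points above the blue ones, while Dppa3 and Dusp6 have them below.

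Of the 16 general pluripotency genes, 8 rose and 2 fell, with a median of 0.27. Pou5f1, the gene of OCT4, measured 415, 442 and 443 CPM in control against 562, 618 and 561 CPM in KO and rose by 0.42 ± 0.05. Sox2, its partner, rose by 0.32 ± 0.06, and Utf1, which acts on bivalent chromatin, by 0.59 ± 0.16. The TGF-beta family ligand Gdf3 rose by 1.09 ± 0.12 and the forkhead factor Foxd3 by 1.12 ± 0.34, the latter not without control replicate 1. Epcam, an adhesion molecule of ESCs, fell by 0.66 ± 0.10 and Dnmt3l, the cofactor of the de novo DNA methyltransferases, by 0.76 ± 0.17.

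Formative and primed genes were split. Of 21 genes 4 rose (Fgf5, Zic2, Zic5 and Dnmt3a) and 4 fell (Otx2, Pou3f1, Dusp6 and Grhl2), and the median was -0.01. Otx2, the homeobox factor that directs cells to the epiblast enhancers, measured 27.00, 36.2 and 23.9 CPM in control against 19.98, 20.5 and 18.9 CPM in KO. The groups did not overlap, and it fell by 0.55 ± 0.15 (edgeR adjusted p = 0.00826); without control replicate 2, the highest library, the value was -0.36 and did not pass. Pou3f1, which encodes OCT6, measured 7.58, 14.01 and 11.6 CPM in control against 5.53, 5.65 and 5.28 CPM in KO and fell by 1.01 ± 0.23. Fgf5 stayed low in every library, at 0.601, 0.966 and 0.353 CPM in control against 2.00, 1.73 and 1.24 CPM in KO; its rise of 1.39 ± 0.42 rests on few counts and did not pass without control replicate 3 or without KO replicate 1. Dnmt3b, at 0.01 ± 0.20, Lef1, at -0.44 ± 0.29, and Sox3, at 0.04 ± 0.28, did not pass.

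FGF signals through ERK to drive cells out of the naive state. In KO cells several genes that ERK induces were lower and Fgf4 was higher. Of 25 genes 3 rose and 9 fell, where 18.1% of all genes fell, and the median was -0.45. Among ligands, Fgf4, the main FGF of ESCs, measured 60.3, 60.9 and 58.7 CPM in control against 107, 106 and 115 CPM in KO and rose by 0.87 ± 0.08. Of the receptors, Fgfr3 fell by 0.77 ± 0.20, while Fgfr1, at 0.01 ± 0.06, and Fgfr2, at -0.13 ± 0.12, did not pass. The phosphatase gene Dusp6, which ERK induces and which switches ERK off, measured 296, 335 and 347 CPM in the 3 control libraries and 144, 167 and 149 CPM in the 3 KO libraries. It was lower in every KO library, by 1.09 ± 0.17 (edgeR adjusted p = 0.000121), and its relatives Dusp4 and Dusp1 fell by 0.86 ± 0.09 and 1.41 ± 0.19. Of the immediate early genes, 5 fell: Ier3 by 2.93 ± 0.43, Egr1 by 3.01 ± 0.31, Junb by 1.58 ± 0.35, Fos by 1.37 ± 0.28 and Jun by 0.96 ± 0.22. Ier2, at -0.09 ± 0.13, and Fosl1, at -0.66 ± 0.39, did not pass, nor did the ERK-induced ETS genes Etv4, at 0.04 ± 0.18, and Etv5, at 0.21 ± 0.09. The feedback inhibitors did not follow as a group, since Spred2 rose by 0.45 ± 0.06 and Spry1, Spry2, Spry4 and Spred1 did not pass.

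Egr1 and Ier3 show the size of these decreases. Egr1, a zinc finger factor that ERK induces quickly, measured 28.9, 27.6 and 30.8 CPM in control against 4.43, 3.63 and 2.74 CPM in KO. Ier3, a survival gene of the same class, measured 13.2, 41.3 and 37.2 CPM in control against 4.07, 4.04 and 3.91 CPM in KO. In both, the lowest control library exceeded the highest KO library several times. Id1 and Id2, inhibitors of bHLH factors that BMP induces, also fell, by 1.45 ± 0.28 and 1.26 ± 0.14, in a BMP list of 18 genes with 2 risen (1 without control replicate 2 or KO replicate 2) and 3 fallen. Smad1, a transducer of BMP, rose by 0.79 ± 0.10.

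Nodal and activin genes rose in 8 of 15 cases and fell in 0, with a median of 0.24. The called genes include Nodal itself, at 0.24 ± 0.09, its inhibitors Lefty1, at 0.73 ± 0.22, and Lefty2, at 0.56 ± 0.19, the receptors Acvr2b, at 0.47 ± 0.06, and Acvr1b, at 0.44 ± 0.07, and the inhibitory Smad7, at 0.57 ± 0.17. The count was 4 without control replicate 1, without control replicate 3 or without KO replicate 1, and 5 without KO replicate 2. Leaving out single libraries ended the call of Nodal in 5 of 6 refits (not without control replicate 1), of Lefty2 in 4 (control replicate 1 or 3, KO replicate 1 or 2), of Lefty1 in 3 (control replicate 1 or 3, KO replicate 1) and of Smad7 in 1 (control replicate 1). The Lefty genes varied within groups: Lefty1 measured 33.1, 52.5 and 31.4 CPM in control against 66.4, 63.8 and 62.7 CPM in KO. In the Wnt list 5 of 18 rose and 0 fell (1 without KO replicate 2), among them the secreted inhibitors Sfrp1, by 1.30 ± 0.10, and Notum, by 1.14 ± 0.26, and the effectors Tcf7l1, by 0.73 ± 0.10, and Tcf7l2, by 0.44 ± 0.12.

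Of 13 genes that write, erase or protect DNA methylation, 8 rose and 2 fell, with a median of 0.30. Tet1, which oxidises methylcytosine, measured 389, 379 and 303 CPM in control against 623, 655 and 639 CPM in KO and rose by 0.84 ± 0.09. The corepressor gene Trim28, which holds imprints and retroelements silent with ZFP57, measured 883, 851 and 832 CPM in control against 1444, 1484 and 1445 CPM in KO and rose by 0.77 ± 0.05. Mbd3, of the NuRD complex, rose by 0.77 ± 0.10 and Tet2 by 0.30 ± 0.08. Dnmt3a rose by 0.31 ± 0.07 and Dnmt1, the maintenance enzyme, by 0.22 ± 0.07, which did not pass without control replicate 1 or 3. The genes that fell were Dppa3 and Dnmt3l.

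Autophagy genes were next described by their roles. Of the 11 genes of the ubiquitin-like conjugation systems 4 fell and 2 rose, with a median of -0.16. Apart from Atg7, Atg12 fell by 0.40 ± 0.07 and Atg5, its acceptor, by 0.35 ± 0.06, with Atg5 at 72.2, 67.8 and 70.2 CPM in control against 53.98, 55.9 and 55.1 CPM in KO. The third that fell was the protease gene Atg4a, at -0.32 ± 0.11, and the protease genes Atg4c and Atg4d rose by 0.28 ± 0.10 and 0.24 ± 0.08; these 3 calls were lost in at least 4 of the 6 refits that leave out 1 library, and the number risen was 1 without replicate 1 of either group and 0 in the other 4 refits. Atg3, the E2 enzyme of the ATG8 branch, at 0.02 ± 0.10, and Atg16l1, at -0.02 ± 0.07, did not pass.

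Among the 5 ATG8 genes Gabarapl1 fell by 0.50 ± 0.08 and Map1lc3b, the gene of LC3B, by 0.24 ± 0.07, while Gabarapl2 rose by 0.25 ± 0.07. The call of Map1lc3b was lost without control replicate 3, where 2 of the 5 genes rose, and that of Gabarapl2 without control replicate 1. Of 18 genes of the ULK complex, the class III PI3 kinase complexes, ATG9 and the WIPI proteins, 6 rose and 3 fell. Atg2a and Atg2b, which encode lipid transfer proteins, rose by 0.43 ± 0.06 and 0.43 ± 0.10, Ambra1 by 0.37 ± 0.07 and Becn1 by 0.33 ± 0.05. Of the initiation complex, Atg101 fell by 0.46 ± 0.07 and Rb1cc1, the gene of FIP200, by 0.30 ± 0.07.

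The cargo receptors of selective autophagy held the largest change of the autophagy genes. Of 19, 5 rose and 7 fell, with a median of -0.14. Sqstm1, which encodes p62, a receptor that is itself degraded by autophagy, measured 299, 287 and 310.0 CPM in the 3 control libraries and 221, 212 and 209 CPM in the 3 KO libraries. All KO libraries were lower and close together, with a fall of 0.48 ± 0.05 (edgeR adjusted p = 2.87e-06). Among the receptors on mitochondria, Bnip3 fell by 3.33 ± 0.29, Fundc1 by 0.96 ± 0.12 and Bnip3l, the gene of NIX, by 0.65 ± 0.09. Ncoa4, the receptor for ferritin, fell by 0.70 ± 0.08. Those that rose include Wdfy3, a scaffold for aggregates, by 0.73 ± 0.08, and Calcoco2, by 0.49 ± 0.08. Nbr1, at -0.03 ± 0.05, and Tax1bp1, at -0.14 ± 0.06, did not pass. Of 25 genes of the TFEB family and the lysosome, 7 rose and 4 fell, with Tfeb at 0.61 ± 0.10, the glucosidase gene Gaa at 0.74 ± 0.11 and Hexa at 0.67 ± 0.08.

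Genes of the integrated stress response were higher in KO in nearly every case. In this response, kinases that sense amino acid lack, misfolded protein or other stress phosphorylate eIF2alpha, which slows translation while raising that of ATF4, and ATF4 with C/EBP partners turns on genes for amino acid uptake, amino acid synthesis and redox balance. Of 23 tested genes 21 rose and 0 fell, against 19.5% risen among all genes, and the median log2 fold change was 1.15. Ddit4, at 0.26 ± 0.17, and Ppp1r15a, at 0.13 ± 0.09, did not pass. Members were higher in all KO libraries than in any control library except Ddit4.

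A core of the element that ATF4 and C/EBP bind, TGATGNAA, was searched on both strands in the 250 bases before each RefSeq start. It lay in 320 of 15359 such windows (2.08%) over 12143 of the tested genes, in 5 of 24 windows (20.8%) of 21 genes of the stress response list, and in 0 of the windows of the hypoxia and glycolysis lists. The windows that follow are those of the 5 list genes that hold it and of Pck2, a mitochondrial PEP carboxykinase gene among the largest increases. Capitals mark the match, on either strand, and a match is a description of the letters, not a shown binding site. Sequences are from RefSeq on GRCm38.p6, 5′ to 3′ along the gene's strand.
Chac1 (chr2:119351003-119351102, plus strand): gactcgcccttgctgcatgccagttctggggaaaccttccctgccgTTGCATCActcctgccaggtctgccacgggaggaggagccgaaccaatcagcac
Pck2 (chr14:55540117-55540216, plus strand): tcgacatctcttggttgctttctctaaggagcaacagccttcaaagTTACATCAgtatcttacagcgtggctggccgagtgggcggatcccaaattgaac
Nupr1 (chr7:126625562-126625591, minus strand): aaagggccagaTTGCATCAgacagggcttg
Slc7a11 (chr3:50443652-50443681, minus strand): gcTGATGCAAacctggagaatTTGCATCAt
Asns (chr6:7693214-7693243, minus strand): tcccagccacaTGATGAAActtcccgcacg
Vldlr (chr19:27216809-27216838, plus strand): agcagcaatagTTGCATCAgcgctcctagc
Of the stretches shown, that of Slc7a11 holds 2 matches and the others hold 1. The match nearest to the start lies 185 bases before it in Chac1, 95 in Pck2, 102 in Nupr1, 39 in Slc7a11, 15 in Asns and 192 in Vldlr.

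Chac1, which degrades glutathione, measured 6.86, 6.90 and 5.71 CPM in the 3 control libraries and 35.04, 44.4 and 31.5 CPM in the 3 KO libraries. Every KO library was several times higher than any control, a rise of 2.51 ± 0.26 (edgeR adjusted p = 2.86e-06). Nupr1, a stress-induced nuclear protein gene, measured 4.63, 5.59 and 5.83 CPM in control against 27.9, 30.5 and 25.1 CPM in KO and rose by 2.38 ± 0.18. Pck2 measured 14.9, 14.6 and 16.8 CPM in control against 93.1, 104 and 78.9 CPM in KO and rose by 2.58 ± 0.24. Among the regulators, Atf4 itself measured 128, 141 and 151 CPM in control against 258, 281 and 224 CPM in KO and rose by 0.86 ± 0.12. Its relative Atf5 rose by 1.86 ± 0.16, the pseudokinase gene Trib3, a feedback inhibitor of ATF4, by 1.88 ± 0.14, and Ddit3, the gene of CHOP, by 1.17 ± 0.21. Cebpb rose by 2.07 ± 0.48 from a low level, 0.662, 0.759 and 3.42 CPM in control against 10.3, 4.84 and 5.55 CPM in KO.

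Transport and synthesis genes rose as well. Slc7a5, the large neutral amino acid transporter LAT1 (chr8:121881150-121907694, minus strand, GRCm38), measured 176, 178 and 181 CPM in the 3 control libraries and 466, 499 and 414 CPM in the 3 KO libraries. The controls lay close together and every KO library was far above them, with a rise of 1.37 ± 0.09 (edgeR adjusted p = 3.62e-08). Its heavy chain Slc3a2 rose by 0.77 ± 0.06 and the cystine transporter gene Slc7a11 by 1.64 ± 0.36; with a fibroblast score as a covariate the latter was 0.55 and did not pass (edgeR adjusted p = 0.213). Of serine and folate metabolism, Mthfd2 measured 104, 107 and 118 CPM in control against 291, 303 and 272 CPM in KO and rose by 1.40 ± 0.11, Shmt2 by 1.18 ± 0.13, Phgdh by 0.97 ± 0.11 and Psat1 by 0.88 ± 0.12. Asns, the asparagine synthetase gene, rose by 0.44 ± 0.09. Genes of the endoplasmic reticulum chaperones, a separate branch of the stress programmes, were split, with 4 of 20 risen, 3 fallen and a median of -0.03. Hspa5, the gene of BiP, at -0.04 ± 0.11, did not pass.

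**Figure D3:**
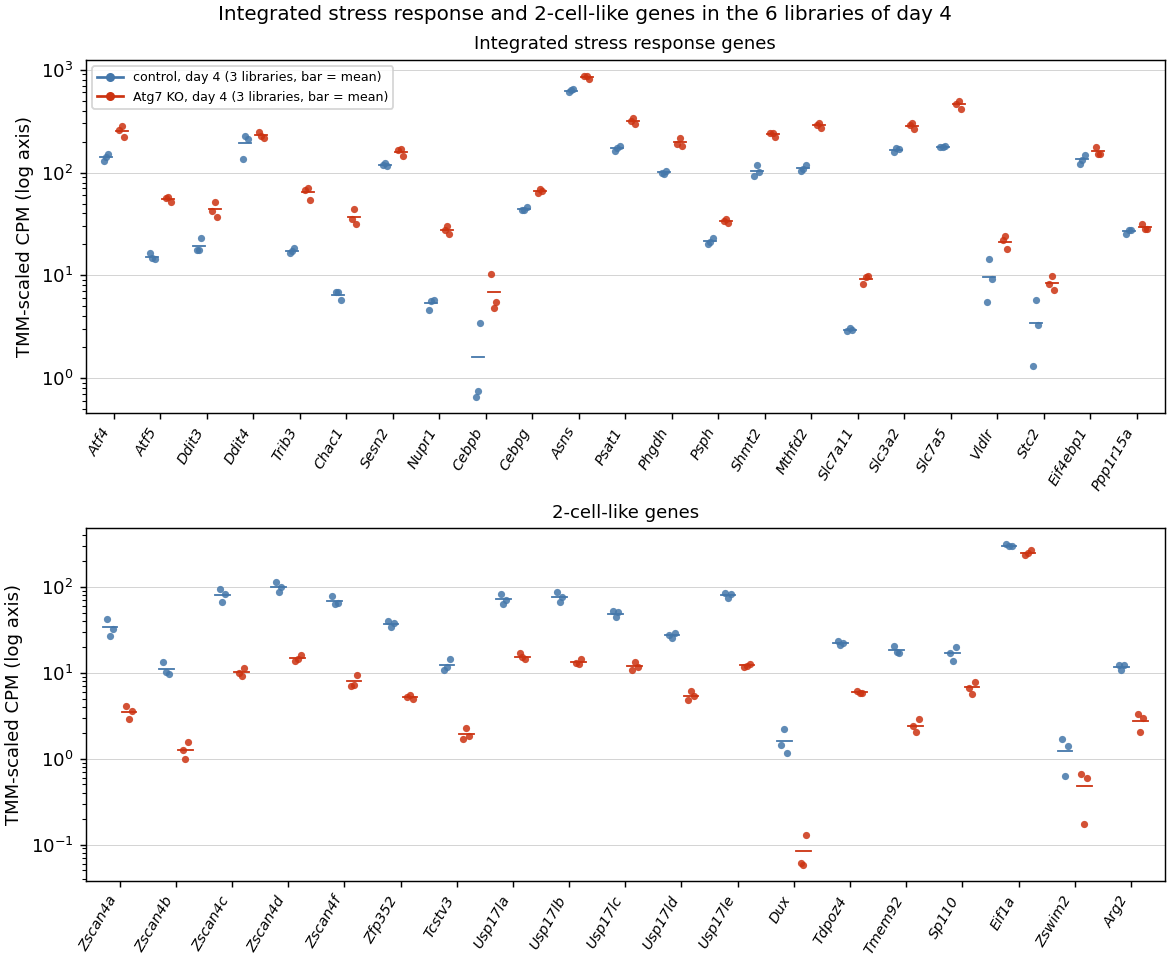
Level of each tested integrated stress response gene (top) and 2-cell-like gene (bottom) in the 3 control (blue) and 3 Atg7 KO (red) libraries of day 4, as TMM-scaled CPM on a log axis, where bars are means. Red points lie above blue in 22 of the 23 stress response genes and below blue in 18 of the 19 2-cell-like genes.

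Glycolysis and hypoxia-inducible genes were lower in KO. HIF factors, held down by oxygen-dependent hydroxylation, turn on glucose uptake, glycolysis, lactate export and mitophagy receptors through hypoxia response elements. Of 21 genes of glycolysis and glucose transport 18 fell and 0 rose, with a median of -0.61. Of 19 hypoxia-inducible genes outside glycolysis 14 fell and 3 rose, with a median of -0.88, where 18.1% of all genes fell. The 3 that rose were Vegfa, at 0.80 ± 0.13, Hif1a, at 0.41 ± 0.09, and Epas1, the gene of HIF2alpha, at 0.45 ± 0.07. Vegfa is a target of HIF, and the other two encode its oxygen-regulated subunits.

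The hypoxia response element core, ACGTG, was searched in the same windows. It is short and lay in 3171 of the 15359 (20.6%), in 13 of 21 windows (61.9%) of 15 hypoxia genes, in 12 of 30 (40%) of 20 glycolysis genes and in 6 of 24 (25%) of the stress response genes. A palindrome CACGTG counts as 2 overlapping matches. The following stretches, with matches in capitals, are from genes of both lists that fell, chosen from those with a match in the window.
Bnip3 (chr7:138909562-138909661, minus strand): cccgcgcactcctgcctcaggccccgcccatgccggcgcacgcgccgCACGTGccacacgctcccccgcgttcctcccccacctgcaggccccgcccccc
P4ha1 (chr10:59323196-59323295, plus strand): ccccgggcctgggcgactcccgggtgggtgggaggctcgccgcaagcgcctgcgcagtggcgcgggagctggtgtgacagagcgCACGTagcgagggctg
P4ha2 (chr11:54100833-54100862, plus strand): gtgtgcatcgcatACGTGcagcgcgtggcg
Egln3 (chr12:54204025-54204124, minus strand): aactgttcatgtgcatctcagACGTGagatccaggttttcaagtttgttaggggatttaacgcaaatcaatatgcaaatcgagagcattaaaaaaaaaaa
Slc16a3 (chr11:120949034-120949063, plus strand): gcggtgACGTGcgcgggggACGTGccgcgc
Pgk1 (chrX:106186912-106187011, plus strand): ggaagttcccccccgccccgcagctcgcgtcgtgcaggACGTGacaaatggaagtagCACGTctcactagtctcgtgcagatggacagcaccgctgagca
Slc16a3 and Pgk1 hold 2 separate matches in the stretch shown, and P4ha1 and Slc16a3 have the closest to the start, 11 and 9 bases before it. Vegfa and Hif1a, which rose, hold the core in their windows too.

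Bnip3, the mitophagy receptor gene also counted above (chr7:138890836-138909519, minus strand, GRCm38), measured 70.96, 214 and 170.4 CPM in the 3 control libraries and 12.4, 18.6 and 14.2 CPM in the 3 KO libraries. The KO libraries were all far below the controls, of which replicate 1 was the lowest, and the fall was 3.33 ± 0.29 (edgeR adjusted p = 4.55e-07). Egln3, an oxygen-sensing prolyl hydroxylase gene, measured 22.97, 66.1 and 53.1 CPM in control against 7.41, 6.97 and 6.79 CPM in KO and fell by 2.74 ± 0.27. P4ha1 and P4ha2, collagen prolyl hydroxylase genes, fell by 1.72 ± 0.14 and 1.42 ± 0.14. Ankrd37, Ndrg1 and Pfkfb3, further HIF targets, fell by 2.60 ± 0.29, 2.52 ± 0.32 and 2.28 ± 0.30. Vegfa, in contrast, measured 52.5, 82.1 and 73.7 CPM in control against 124, 119 and 119 CPM in KO, with all KO libraries above the controls.

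Slc16a3, the lactate exporter MCT4 (chr11:120948480-120960868, plus strand, GRCm38), measured 71.1, 186 and 135 CPM in the 3 control libraries and 7.71, 12.4 and 8.29 CPM in the 3 KO libraries. The groups were far apart although the controls varied, replicate 1 being the lowest, with a fall of 3.78 ± 0.29 (edgeR adjusted p = 1.8e-07). Slc2a1, the glucose transporter GLUT1, measured 712, 1535 and 1275 CPM in control against 310.3, 322 and 291 CPM in KO and fell by 1.93 ± 0.18. Along the pathway, the aldolase gene Aldoc fell by 3.39 ± 0.39, the triosephosphate isomerase gene Tpi1 by 2.46 ± 0.20, Pgk1 by 1.59 ± 0.14 and Ldha, which makes lactate, by 1.71 ± 0.21. Gapdh fell less, by 0.40 ± 0.06. Hk2, at -0.16 ± 0.10, Eno3, at -0.36 ± 0.16, and Ldhb, at 0.45 ± 0.18, did not pass; without control replicate 1 Hk2 and Eno3 did. Eno1 had 0 to 3 counts in the day 4 libraries and was not tested, and near-identical copies make its reads hard to place.

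The control libraries themselves differed in these genes. Control replicate 1 was the lowest of the controls in 17 of the 19 hypoxia genes and in 19 of the 21 glycolysis genes, with medians of -0.56 and -0.42 (log2) against the mean of the other controls. Every KO library was still below every control in 13 and 17 of these genes, against 27.2% of all genes. Without control replicate 1 the counts of fallen genes were 14 of 19 and 20 of 21. No label gives the culture density or oxygen of single libraries.

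**Figure D4:**
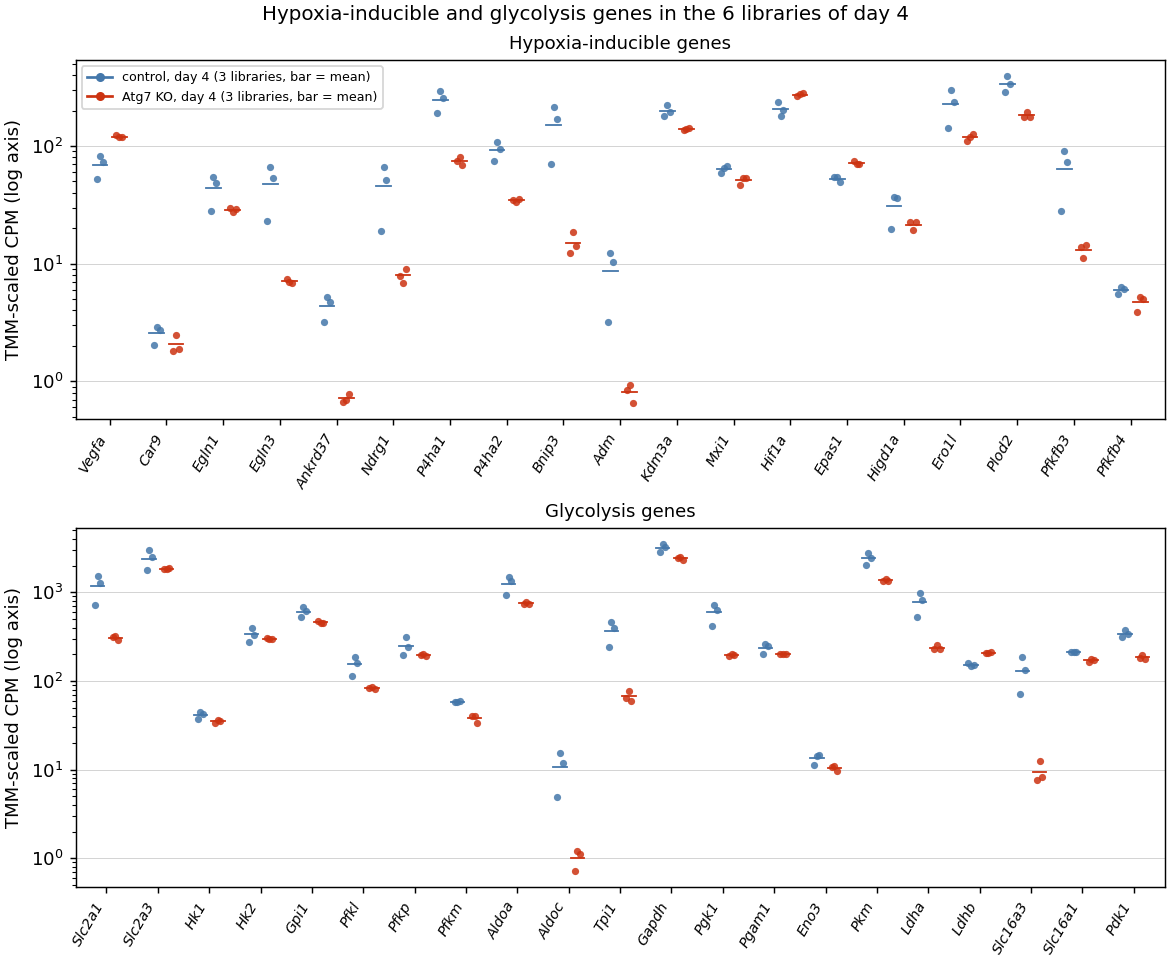
Level of each tested hypoxia-inducible gene (top) and glycolysis gene (bottom) in the 3 control (blue) and 3 Atg7 KO (red) libraries of day 4, as TMM-scaled CPM on a log axis, where bars are means. Bnip3, Adm, Slc16a3 and Tpi1 have all red points far below the blue ones, Vegfa and Hif1a have them above, and 1 blue point, control replicate 1, lies below the other blue points in most genes.

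The nuclear genes of the respiratory chain were mixed in comparison, with 10 of 30 risen, 7 fallen (4 without control replicate 3) and a median of 0.09. Uqcrc1 and Cyc1 of complex III rose by 0.60 ± 0.05 and 0.53 ± 0.06. Ndufa4 fell by 0.62 ± 0.08 and Uqcrh by 0.51 ± 0.09. Ndufa4l2, a paralogue of Ndufa4 that hypoxia induces, measured 1.98, 9.73 and 9.19 CPM in control against 0.182, 0.461 and 0.457 CPM in KO and fell by 4.22 ± 0.62, the most among genes with at least 5 CPM in the higher group. Control replicate 1 was again the lowest control.

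The 2-cell-like programme was much lower in KO. These genes mark a rare state of ESCs with features of the 2-cell embryo, driven by DUX. Of 19 tested genes 18 fell and 0 rose, with a median of -2.67. Zscan4f (chr7:11397915-11402318, plus strand, GRCm38), of a cluster that guards telomeres in that state, measured 78.2, 62.6 and 64.6 CPM in the 3 control libraries and 7.04, 7.21 and 9.53 CPM in the 3 KO libraries. Every KO library was far below every control, and the fall was 3.11 ± 0.35 (edgeR adjusted p = 5.12e-06). Zscan4a and Zscan4b fell by 3.26 ± 0.35 and 3.13 ± 0.40. Usp17le, a deubiquitinase gene of the same state, measured 85.2, 74.7 and 82.1 CPM in control against 11.7, 12.1 and 12.7 CPM in KO and fell by 2.73 ± 0.27. Zfp352 fell by 2.83 ± 0.33. How reads were shared among the near-identical copies of Zscan4 and Usp17l is uncertain. Eif1a fell least, by 0.28 ± 0.08, which did not pass without KO replicate 1. Zswim2, at -1.40 ± 0.55, passed only without control replicate 2 among the refits that leave out 1 library.

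Of 20 germline and meiosis genes, which DNA methylation normally silences, 9 fell and 1 (Piwil2) rose, with a median of -0.335. The rise of Piwil2, at 0.25 ± 0.10, was lost in all 6 refits without 1 library. Tex101, a germ cell surface gene, measured 18.8, 20.1 and 22.9 CPM in control against 5.22, 5.36 and 6.33 CPM in KO and fell by 1.87 ± 0.18. Mov10l1 and Mael, of the piRNA pathway, fell by 0.60 ± 0.12 and 0.49 ± 0.07, and Sycp3, of the synaptonemal complex, by 0.44 ± 0.09. Dazl, at -0.09 ± 0.25, did not pass. Of 24 imprinted genes 4 rose and 8 fell, with Dlk1 at 1.29 ± 0.13, Grb10 at 1.18 ± 0.08, Nnat at -1.48 ± 0.24 and Phlda2 at -1.28 ± 0.20.

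Of 13 trophoblast genes 6 fell and 0 rose, with a median of -0.63. Hand1, which directs trophoblast giant cells and also marks mesoderm, measured 4.27, 9.59 and 8.30 CPM in control against 0.729, 1.56 and 1.11 CPM in KO and fell by 2.69 ± 0.40. Gata2 fell by 1.80 ± 0.36, and the keratin genes Krt8 and Krt18, which epithelia also express, by 0.73 ± 0.10 and 1.02 ± 0.11. The defining trophoblast factors Cdx2 and Elf5 were too low to test. Of 26 epithelial adhesion and splicing genes 11 fell and 2 rose (1 without control replicate 3 or KO replicate 2). The splicing factor gene Esrp1 fell by 1.60 ± 0.27, Krt19 by 1.44 ± 0.29 and the desmosome gene Pkp2 by 0.57 ± 0.07, while Cdh1, the gene of E-cadherin, at 0.00 ± 0.05, did not pass. Among neural genes 3 of 12 rose, and the median was -0.19. Sox1 rose by 1.57 ± 0.21, Tubb3 by 0.70 ± 0.08 and Ncam1 by 0.61 ± 0.14. Of the endoderm genes 3 of 19 rose and 0 fell, with Gata6 at 0.76 ± 0.14 and Hhex at 0.61 ± 0.16; this share is below the 19.5% of all genes.

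Basement membrane genes rose in 10 of 14 cases and fell in 1 (Itgb1, lost in all 6 refits without 1 library), with a median of 0.31. Hspg2, the gene of perlecan, measured 559, 550.4 and 431 CPM in control against 916, 914 and 863 CPM in KO and rose by 0.81 ± 0.09. Lamc1, a laminin chain, rose by 0.52 ± 0.06, Nid1, which links laminin to collagen IV, by 0.55 ± 0.07, and Agrn by 0.39 ± 0.06. Fibroblast genes were also higher. Of 19 genes of the feeder list 4 rose and 0 fell, a share near the 19.5% of all genes, yet the median was 1.15 and 14 of 19 were higher in every KO library than in any control, against 27.6% of all genes. Col1a1 measured 11.4, 11.7 and 13.3 CPM in control against 37.3, 35.3 and 41.95 CPM in KO and rose by 1.65 ± 0.46. Lum, a defining fibroblast gene, measured 0.241, 0.552 and 0.236 CPM in control against 2.31, 0.749 and 2.67 CPM in KO and did not pass. Dcn, another, measured 1.98, 2.83 and 2.24 CPM in control against 5.47, 4.27 and 11.5 CPM in KO and did not pass either. With a fibroblast score as a covariate, an alternative chosen after seeing the data, the calls of Utf1, Tcl1, Foxd3, Otx2, Fgf5, Dnmt3a, Tet2, Fgfr3, Lefty2, Smad7, Atg4a, Atg4c, Atg4d, Slc7a11, Bcl2l11, Psme3, Nqo1, Sycp3 and Mmp3 were lost among the genes described. The gene Utf1 had 0.13 and the gene Otx2 -0.30 in that fit. Nanog, Klf4, Dppa3, Egr1, Chac1 and Bnip3 passed in it.

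Changes of cell cycle genes were small. Of 24 genes of the G2 and M phases 12 fell and 2 rose, with a median of -0.15. Cdk1 fell by 0.38 ± 0.05, the spindle factor gene Tpx2 by 0.37 ± 0.04, the kinesin gene Kif23 by 0.37 ± 0.06 and the checkpoint kinase gene Bub1 by 0.35 ± 0.06. Without control replicate 1 or without KO replicate 1 the number that fell was 8. S phase genes were divided into 8 of 24 risen and 6 fallen, with the licensing factor gene Cdt1 at 0.52 ± 0.06 and Ung, which removes uracil from DNA, at 0.67 ± 0.06 on the higher side. The number risen was 5 without control replicate 1 and without KO replicate 1 or 3.

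Genes of protein breakdown and survival also differed. Of 30 proteasome subunit genes 17 fell and 4 rose, by small amounts with a median of -0.15. Psmb2 fell by 0.36 ± 0.06 and Psmc6 by 0.35 ± 0.06, and the activator genes Psme3 and Psme4 rose by 0.33 ± 0.08 and 0.38 ± 0.06. Leaving out control replicate 2 or 3 brought the number fallen to 10, and leaving out KO replicate 1 or 2 to 11. In the BCL2 family 6 of 15 fell and 1 rose. The antiapoptotic Mcl1 measured 619, 655 and 683 CPM in control against 385, 413 and 401 CPM in KO and fell by 0.71 ± 0.07. Of the BH3-only genes, Pmaip1, the gene of NOXA, fell by 1.00 ± 0.15 and Bcl2l11, the gene of BIM, by 0.57 ± 0.12, while Hrk was the 1 that rose, at 2.25 ± 0.28, from 1.26, 1.38 and 1.41 CPM in control against 6.50, 7.26 and 5.61 CPM in KO. Of 20 NRF2 and antioxidant genes 5 rose (3 without KO replicate 1) and 7 fell. Prdx1, a peroxidase gene, fell by 0.50 ± 0.05 and Nqo1 by 0.66 ± 0.18. KEAP1, the inhibitor of NRF2, is encoded by Keap1, which rose by 0.55 ± 0.10. Cholesterol synthesis genes rose in 8 of 22 cases, among them Srebf2, their main activator, by 0.75 ± 0.08, and fell in 5 (3 without control replicate 2 or KO replicate 3). Of 14 purine salvage and synthesis genes 3 rose and 2 fell (1 without control replicate 1 or KO replicate 2), with a median of 0.01.

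Beyond the lists, the genes with the smallest p were Spp1, Mybl2, Cmtm7, Kat2a and Cobl on the higher side. Spp1, the gene of osteopontin (chr5:104435118-104441050, plus strand, GRCm38), measured 132, 124 and 141 CPM in the 3 control libraries and 384, 401 and 459 CPM in the 3 KO libraries. The groups were tightly clustered and far apart, with a rise of 1.65 ± 0.08 (edgeR adjusted p = 3.75e-09). Mybl2, a regulator of cell cycle genes, rose by 0.91 ± 0.05, and Kat2a, the gene of the acetyltransferase GCN5, by 0.89 ± 0.05. Cmtm7 and Cobl rose by 1.04 ± 0.06 and 1.24 ± 0.07. On the lower side were Dppa3, Cyr61, Arhgef26, Klf10 and Ctgf. Cyr61, a matricellular gene that YAP and TEAD induce, measured 87.02, 75.99 and 97.7 CPM in control against 25.5, 28.3 and 27.4 CPM in KO and fell by 1.68 ± 0.09. Ctgf, of the same family, measured 166, 163 and 186 CPM in control against 52.3, 62.9 and 55.7 CPM in KO and fell by 1.59 ± 0.11. Klf10, which TGF-beta induces, fell by 0.88 ± 0.06 and Arhgef26 by 1.70 ± 0.11.

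The largest increases other than those above were in Cox6a2, a muscle-type subunit of cytochrome oxidase, with 0.421, 0.483 and 0.118 CPM in control against 5.77, 4.15 and 5.81 CPM in KO and a rise of 3.94 ± 0.37, and in Ubap1l, at 3.38 ± 0.42. G0s2, an inhibitor of lipolysis, rose by 2.36 ± 0.35, Pramel6, a gene of naive cells, by 2.20 ± 0.27, and Slc6a9, a glycine transporter gene, by 2.17 ± 0.18. The matrix genes Tnc and Col6a3 rose by 2.07 ± 0.41 and 2.25 ± 0.65, and fibroblasts, whose 9 markers summed to 92.3 to 136 CPM in KO and 51.2 to 59.4 CPM in control, express both. With a fibroblast score as a covariate both genes passed. The part of fibroblasts in these rises was not tested. Mmp3, a matrix protease gene of fibroblasts, rose by 4.57 ± 1.57, from 0, 0.276 and 0.353 CPM in control against 2.31, 1.44 and 11.7 CPM in KO. That was the largest rise under the same limits of level, overlap and symbol as for Ndufa4l2. KO replicate 3 stood far above the others, and without it the value was 3.13 and did not pass; the call was also lost without any 1 of the control replicates. Among the largest decreases were Pygl, the liver glycogen phosphorylase gene, with 11.4, 16.6 and 13.1 CPM in control against 1.52, 1.21 and 1.11 CPM in KO and a fall of 3.41 ± 0.25, Cd22, by 3.45 ± 0.31, the peptide hormone gene Adm, by 3.39 ± 0.51, and A2m, by 3.21 ± 0.36.

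The KO effect at day 4 was then set against that at day 2, which shares no library with it. At day 2, 6556 genes (41.8%) changed. The difference of the effects was past the test in 5674 genes (36.1%), of which 2919 (18.6%) were more positive and 2755 (17.6%) more negative at day 4. Of the genes called at both days, 849 were higher and 878 lower at both, 645 were lower at day 2 and higher at day 4, and 473 the reverse. The 3058 genes that were higher at day 4 thus include 27.8% that were higher at day 2 too, against 20.4% of all tested genes. Another 21.1% of them were lower at day 2, against 21.4% of all tested genes. Of the genes lower at day 4, 30.9% were lower at day 2 too and 16.6% were higher.

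Nanog was higher in KO at both days, less so at day 4: its effect was 1.13 at day 2 and 0.72 at day 4, a difference of -0.40 ± 0.14 (edgeR adjusted p = 0.0323). Klf4, Tbx3 and Klf5 gained, with differences of 0.88 ± 0.15, 1.03 ± 0.09 and 1.10 ± 0.18. Zfp57, at -0.77 at day 2, and Utf1, at -1.45, turned from lower to higher, with differences of 1.28 ± 0.13 and 2.05 ± 0.23. Otx2 turned from higher (1.33) to lower (-0.55), a difference of -1.88 ± 0.22. Spic, an ETS factor of naive cells, was 3.19 at day 2 and was not called at day 4, a difference of -2.80 ± 0.51. For Dppa3 the difference was -2.65 ± 0.22 and for Lefty1 -1.60 ± 0.33.

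The stress response, hypoxia and glycolysis lists lay farther from 0 at day 4 than at day 2. Their medians were 0.35, -0.06 and -0.26 at day 2 and 1.15, -0.88 and -0.61 at day 4, and the difference was past the test in 13 of 23, 16 of 19 and 12 of 21 genes. Slc7a5 went from -0.10 to 1.37, Bnip3 from 0.22 to -3.33 and Slc16a3 from -0.99 to -3.78, with differences of 1.46 ± 0.12, -3.55 ± 0.38 and -2.78 ± 0.38. For Epas1 the difference was 1.18 ± 0.10. Sqstm1 was 0.24 at day 2, a difference of -0.72 ± 0.07. The 2-cell-like genes were lower at both days, with medians of -2.12 and -2.67, and the difference passed for 2 of 19. The G2 and M phase list had a median of 0.49 at day 2 with 20 of 24 genes higher, where 20.4% of all genes were, and the difference passed for 20 of 24, with Tpx2 at -0.81 ± 0.06.

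The differences with the smallest p were, on the more positive side, those of Parp1, 1.19 ± 0.07, Vars, a valyl-tRNA synthetase gene, 1.13 ± 0.08, Ung, 1.27 ± 0.09, Pcx, the pyruvate carboxylase gene, 1.34 ± 0.10, and Gpc4, a glypican gene, 1.44 ± 0.10. On the more negative side they were Kif20a, -1.25 ± 0.07, Taf7, -1.46 ± 0.09, Cdc25c, -1.62 ± 0.11, Tcf4, -1.44 ± 0.11, and Snx2, -0.86 ± 0.06. All 5 of the latter lie on chromosome 18. Its 408 tested genes had a median log2 fold change of 0.56 at day 2 and of 0.01 at day 4, while the other autosomes lay between -0.08 and 0.08 at day 2 and all autosomes between -0.08 and 0.05 at day 4. The difference was past the test in 53.7% of the genes of chromosome 18, with 212 more negative and 7 more positive, and in 31.3% to 39.1% of those of the other autosomes. Of the sex chromosomes, Y had only 8 tested genes, with medians of 0.80 at day 2 and -0.04 at day 4. The difference passed in 87.5% of them. Chromosome X had medians of -0.10 and -0.11, and the difference passed in 35.7% of its genes. Egr1 and Atg12, with differences of -3.02 ± 0.76 and -1.03 ± 0.09, lie on chromosome 18 too. The copy number of chromosome 18 was not measured, and its part in the values of chromosome 18 was not tested.

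**Figure D5:**
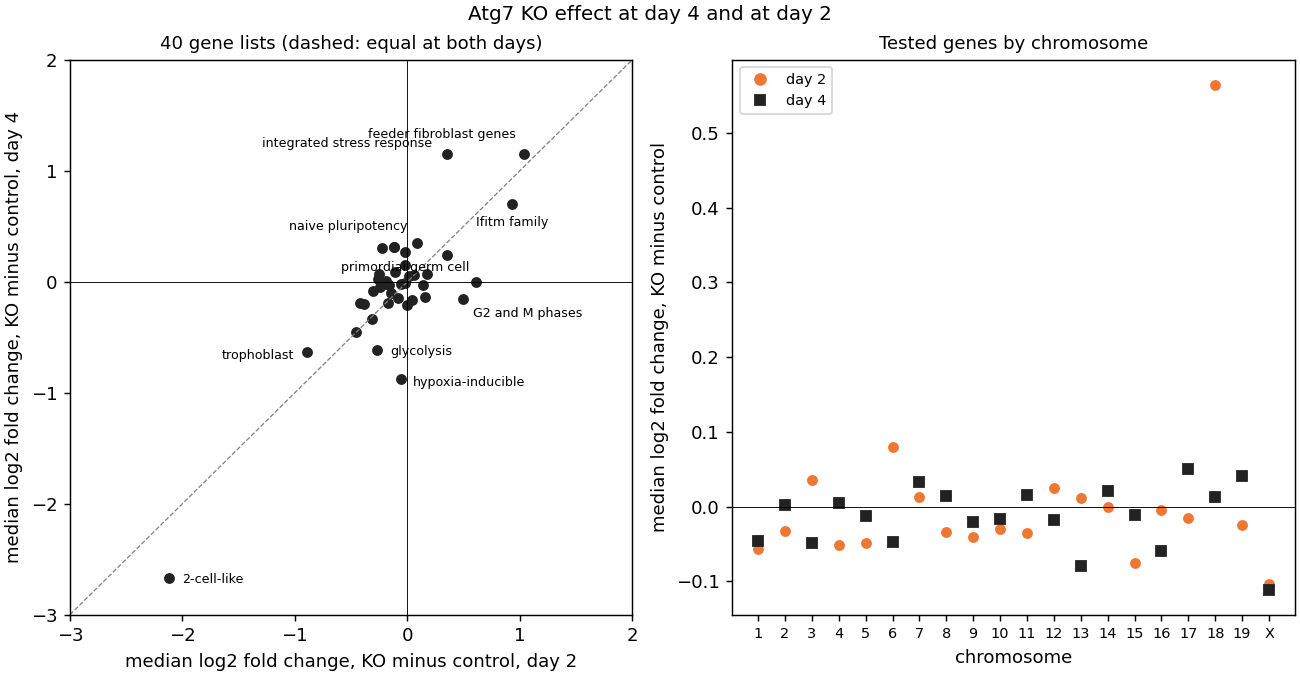
Left, the median log2 fold change of KO against control of each of 40 gene lists at day 2 (horizontal) and at day 4 (vertical), with the dashed line where both are equal. Right, the median over the tested genes of each autosome and of chromosome X at day 2 (orange circles) and day 4 (black squares), where chromosome 18 lies at 0.56 at day 2 and 0.01 at day 4.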

How the data were processed

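Polyadenylated RNA from 15 libraries in 5 groups of 3 was sequenced, and the deposited raw counts per gene symbol, 1 table per library, were used as they are. Per the submitters' processing notes STAR, StringTie, featureCounts and DESeq2 were used, with mm10 and GRCm38; the sources used here give no versions or settings, nor whether counting used strand. The chromosome of each symbol was taken from RefSeq, and the gene positions given were taken from GENCODE on GRCm38. Of 24982 symbols, 15696 passed edgeR's filterByExpr (minimum count 10, minimum total 15). One quasi-likelihood model (edgeR 4.0.16, limma 3.58.1, R 4.3.3) was fitted to all 15 libraries with TMM scaling, and p-values were adjusted by Benjamini-Hochberg over all tested genes. Day 4 totals were 14059237 to 17282802 counts. Replicates of a group at day 4 differed beyond counting noise (chi-square per degree of freedom 3.2 to 7.0), so none was merged. Among the ESC libraries of day 0 the value was 5.86 for replicates 1 and 2, 31.78 for 1 and 3 and 24.22 for 2 and 3. This wider spread enters the SE and p-values of the day 4 comparison. In the 6 libraries of day 4 alone 7312 genes passed, against 5903 in the model of all 15. Counts were also simulated for all 15 libraries, with 67, 67 and 66 genes changed by 1.5-fold, 2-fold and 4-fold at day 4. Of these, 62.7%, 92.5% and 97.0% were recovered, with 14 calls among 15361 unchanged genes of 15561. Only genes with at least 1 CPM in control were changed. Far fewer genes changed there than the 5903 called in the data, so these shares need not carry over.

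The comparison, its gene lists and its named genes were chosen with earlier results of these data known. Genes were named from Atg7, the 12 genes that rose and the 12 that fell most (at least 5 CPM in the higher group, no overlap, predicted symbols left out), the 5 smallest p in each direction for day 4 and for the difference between days, members of the pluripotency, FGF, Nodal, autophagy, DNA methylation, feeder and purine lists, and up to 4 members of smallest p in each direction of other lists. The other list members named, Ankrd37, Asns, Atf4, Atf5, Cdh1, Cebpb, Dazl, Ddit3, Ddit4, Eif1a, Eno1, Eno3, Esrp1, Gapdh, Hk2, Hspa5, Krt19, Ldha, Ldhb, Ndrg1, Nqo1, Pfkfb3, Phgdh, Ppp1r15a, Psat1, Shmt2, Slc3a2, Vldlr, Zfp352 and Zswim2, were chosen after their values were seen. No list was given a test of its own. Not every member of these lists is reported here. Alternatives were other scalings, other filters, DESeq2 1.42.0, the 6 libraries of day 4 alone, a replicate block, a test against a 1.5-fold change, leaving out each library and, added after seeing the data, a fibroblast score as a covariate and the difference without chromosome 18.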

Additional observations from a re-analysis of the deposited data

Results flagged for a closer look

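The effect of the KO at day 4 differed from that at day 2 by a test of the difference in 5674 genes, of which 2919 were more positive and 2755 more negative at day 4. The values that follow are that difference on the log2 scale, day 4 minus day 2, for the named genes that passed the edgeR test. Among pluripotency genes it was -0.40 for Nanog, 0.88 for Klf4, 1.10 for Klf5, 1.03 for Tbx3, 1.28 for Zfp57, 2.05 for Utf1, -2.65 for Dppa3, -2.80 for Spic and -1.88 for Otx2. Lefty1 had -1.60 and Egr1 -3.02.

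For autophagy genes the difference was -0.72 for Sqstm1, -1.03 for Atg12 and -3.55 for Bnip3. In genes of stress, metabolism, survival and the cell cycle it was 1.46 for Slc7a5, 1.18 for Epas1, -2.78 for Slc16a3, 3.05 for Hrk and -0.81 for Tpx2. The genes of smallest p had 1.19 (Parp1), 1.13 (Vars), 1.27 (Ung), 1.34 (Pcx) and 1.44 (Gpc4) on the positive side, and -1.25 (Kif20a), -1.46 (Taf7), -1.62 (Cdc25c), -1.44 (Tcf4) and -0.86 (Snx2) on the negative side. Egr1, Atg12 and the last 5 lie on chromosome 18.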

How the results depend on the processing

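No named gene that passed at day 4 changed sign under an alternative run; some that did not pass, such as Atg3 and Socs3, did. Of the calls at day 4, 51.8% were higher, against 44.5% with upper quartile scaling and 46.9% with the stricter filter. Against a 1.5-fold change, 614 genes passed at day 4, 171 higher and 443 lower, with 4 naive factors and 12 stress response genes higher and 8 hypoxia and 7 glycolysis genes lower; Atg7, at -0.71, did not pass (edgeR adjusted p = 0.452). Other counts of genes at day 4 were 5913 with RLE scaling, 5956 with upper quartile scaling, 5652 of 21611 without a filter, 4917 of 10577 with the stricter filter, 5913 with DESeq2 and 7312 with the 6 libraries alone. Without 1 library they ranged from 4791 to 5048. The difference of the KO effect between day 4 and day 2 was past the test in 4805 to 7029 genes over its alternatives, 5444 without chromosome 18; it was not refitted without single libraries. A fibroblast score as a covariate, chosen after seeing the data, gave 6273, of which 4370 were among the 5903 and 1 gene, not named here, had the opposite sign; the named calls it ended are given with the fibroblast genes above.

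Same-numbered libraries of day 4 showed no visible shared deviation (r = -0.05, -0.016 and -0.002). With so few libraries a group these values cannot settle whether the numbers pair them, and the labels do not say. With a replicate block 6889 genes passed in the 6 libraries of day 4 and 5759 in all 15. In the 6 libraries alone 15 feeder genes rose, where 4 did in the model of all 15. The self-test recovered fewer 1.5-fold than 4-fold changes, so small changes are the least well seen at this depth.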

Other observations

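Wider lists of genes that handle amino acids, which overlap with the stress response genes above, also held more risen than fallen genes at day 4. These lists were made after the values were seen and have no test of their own. Of 20 cytosolic aminoacyl-tRNA synthetase genes, which charge tRNAs, 13 rose and 0 fell, with a median log2 fold change of 0.49, where 19.5% of all genes rose. Cars went from a mean of 109.7 to 219 CPM and Aars from 337 to 612 CPM. Of 17 mitochondrial synthetase genes 7 rose and 1 fell, with a median of 0.20. Of 15 amino acid transporter genes 9 rose and 2 fell, with a median of 0.82, among them Slc7a1, for cationic amino acids, from 167 to 401 CPM, and Slc1a5, for glutamine, from 78.0 to 156 CPM. Slc7a5, Slc3a2 and Slc7a11, already described with the stress response, are counted again among the 9 that rose. Of 17 genes for serine, one-carbon units, proline and asparagine 14 rose and 0 fell, with a median of 0.97; some of them are also in the stress response list.

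Of 24 interferon and MHC class I genes 10 fell, with a median of -0.68. Most were low: Cxcl10 went from a mean of 7.28 to 1.43 CPM and H2-K1 from 26.8 to 12.4 CPM. Of 16 glycogen genes 7 fell and 1 rose, with a median of -0.39; Ppp1r3c, which targets a phosphatase to glycogen, went from 10.6 to 2.29 CPM. Targets of YAP and TEAD went both ways, with 5 of 17 risen and 4 fallen. Cytosolic heat shock genes did too, with 4 of 15 risen and 6 fallen; Hspa1b went from 22.2 to 7.03 CPM and Hspb1 from 341 to 516 CPM.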
